A study of Mus musculus with 13 samples.

Results

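The genes described here are the cyclins, cyclin-dependent kinases (CDKs) and proliferation genes of the cell cycle, a list of 38 genes of which 37 were measured among the 19938 named genes of the array. A gene was counted as measured if a probe set of the platform annotation carried its symbol alone, and the brightest such probe set stood for the gene. Ccnb1 had no such probe set and is not analysed here. The livers came from male wild-type C57BL/6N mice, 5 to 6 months old. In the STZ group, 6 mice had received 65 mg/kg streptozotocin intraperitoneally on 5 consecutive days at an age of 10 to 16 weeks. Streptozotocin, a sugar-linked alkylating agent, is taken up by pancreatic beta cells and kills them, which leaves the animals short of insulin. The 7 controls were mock-injected with citrate buffer according to the sample labels, whereas the design text of the series describes them by a standard diet. Livers were taken 9 to 11 weeks after treatment, and total RNA was hybridised to 1 Affymetrix mouse gene array per mouse.

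Cells enter the cycle when D-type cyclins activate CDK4 and CDK6, which together with cyclin E and CDK2 phosphorylate the retinoblastoma protein RB. Phosphorylated RB releases E2F transcription factors, which switch on the genes of DNA replication (S phase), and a later wave of transcription through B-MYB and FOXM1 switches on the genes of mitosis (M phase). Adult hepatocytes are mostly quiescent and re-enter the cycle after partial hepatectomy or injury, when cyclin D1 rises before the genes of S phase and M phase do. The comparison of STZ with control livers asked whether a higher Ccnd1 transcript level came together with the genes of the later phases.

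All values are log2 intensities, so a difference of 1 is 2-fold, and differences are STZ minus control with the standard error (SE) of the fit in limma over all 19938 genes. A gene was said to have risen or fallen when its p-value, adjusted by Benjamini-Hochberg over all genes, was under 0.05. Of all genes 9.12% passed in limma, 5.09% as higher and 4.04% as lower. The share was 9.1% with a trended, robust variance, 9.09% with the mean of all probe sets, 8.68% with centred arrays, 9.94% after another quantile normalization, 18.6% among genes above the median gene, 5.46% in an exact rank-sum test, 6.3% with the replicate number as a block and 9.96% with STZ label numbers 29 to 32 only. Without control replicates 1 to 7 in turn it was 7.24%, 8.38%, 8.11%, 7.81%, 7.5%, 7.69% and 7.42%, and without STZ replicates 1 to 6 it was 7.22%, 8.24%, 9.12%, 7.02%, 10.9% and 7.52%. Array medians lay within 0.08 of each other, and the number of arrays limits the precision. The mean of 8 hepatocyte markers such as albumin lay between 12.95 and 13.05 in every array, near the top of a scale that ended at 14.14. Hepatocytes and other liver cells were measured together, and in such bulk samples fewer cells of a type and less RNA per cell cannot be told apart. Of the 37 cell cycle genes, Ccnd1 and Ccnd3 rose, E2f8 fell and 34 did not pass. That is 8.11% of the list against 9.12% of all genes, and 8 of the 37 (21.6%) had an unadjusted p under 0.05 against 20.8% of all genes. The median difference was 0.02 over the 37 genes and -0.01 over all genes. The list passed about as often as genes in general. Ccnd1 was the only member that passed with a change of at least 2-fold, against 0.697% of all genes.

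**Figure D1:**
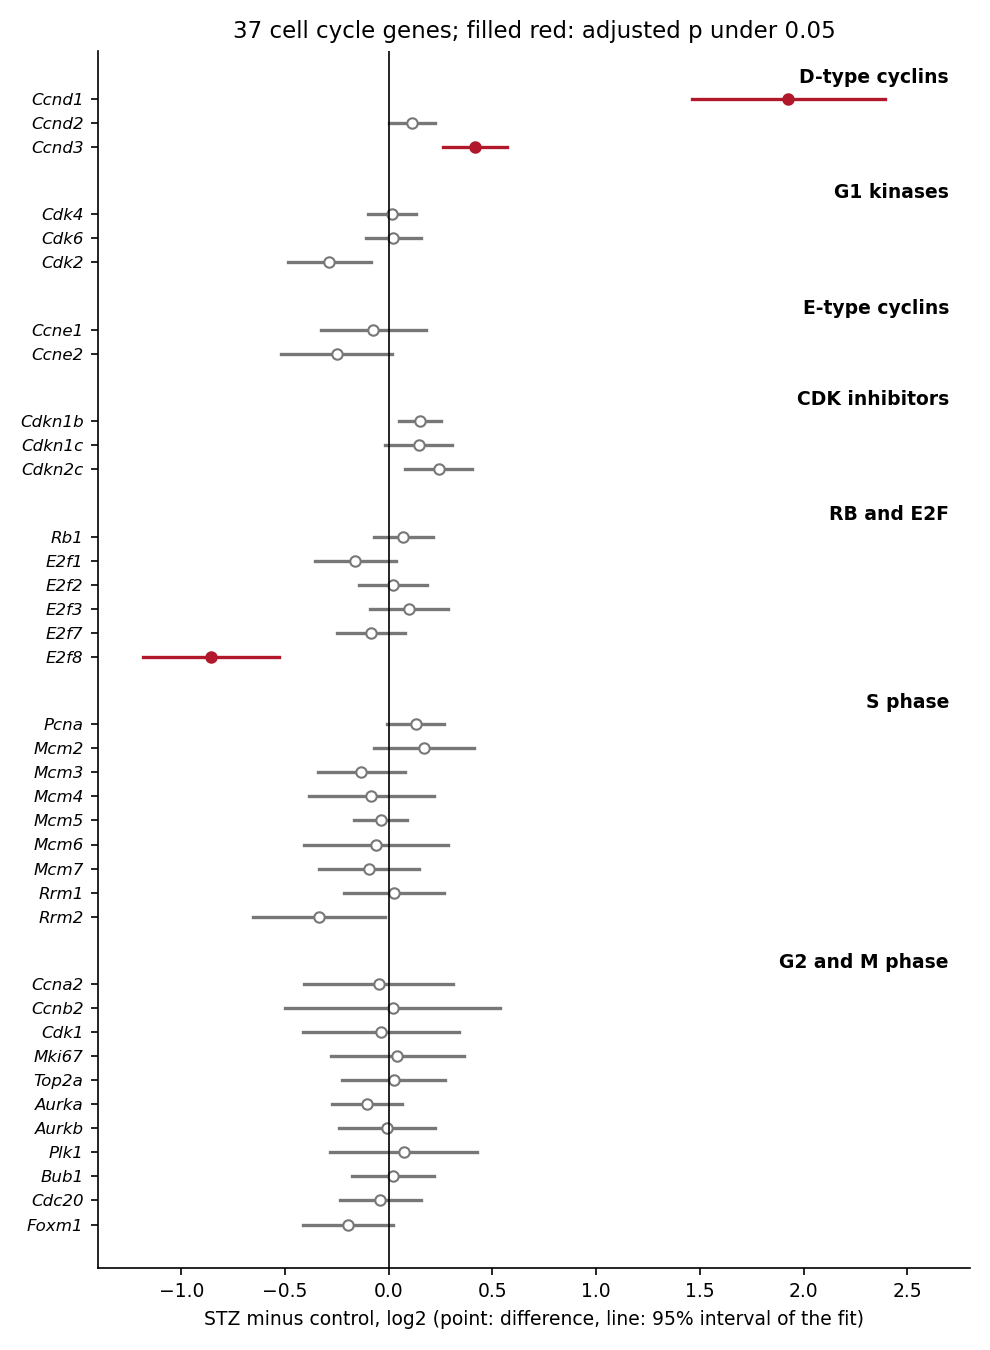
Difference between 6 STZ and 7 control livers (log2, x axis) for each of the 37 measured genes, grouped by role, with the 95% interval of the limma fit as a line. Filled red points are the genes that passed, Ccnd1 (1.93), Ccnd3 (0.42) and E2f8 (-0.86), while the open points of the S phase and the G2 and M phase genes lie between -0.34 and 0.17.

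Cyclin D1, the regulatory subunit that couples growth signals to CDK4 and CDK6, had by far the highest difference of the list. In the 7 controls Ccnd1 was 8.41, 8.38, 8.08, 8.17, 8.33, 8.40 and 8.35. In STZ replicates 1 to 6 it was 10.62, 10.25, 10.15, 11.09, 9.01 and 10.26. The groups did not overlap, and STZ replicate 5, the lowest, still lay 0.60 above the highest control. Ccnd1 rose by 1.93 ± 0.22 (SE), from 8.30 ± 0.13 (SD, n = 7) to 10.23 ± 0.69 (SD, n = 6), which is 3.80-fold with a 95% interval of 2.75-fold to 5.25-fold (adjusted p = 4.66e-05 in limma). An exact 2-sided permutation test of the difference of means gave p = 0.000583, the smallest that the 1716 splits of 13 arrays can give. STZ livers also differed more among themselves than controls did, with a range of 2.07 against 0.33. Without STZ replicate 5 the difference was 2.17, and without STZ replicate 4, the highest, it was 1.76.

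The other D-type cyclins bind the same kinases. Ccnd3 had a lowest, median and highest value of 8.36, 8.53 and 8.77 in controls and of 8.80, 8.98 and 9.13 in STZ livers. Its groups did not overlap either, although the gap was only 0.03. Ccnd3 rose by 0.42 ± 0.07 (SE), which is 1.33-fold (adjusted p = 0.00147 in limma). Ccnd2 was 8.58, 8.71 and 8.82 in controls and 8.73, 8.81 and 8.93 in STZ livers (lowest, median and highest), and 3 of the 6 STZ livers lay above all controls. The Ccnd2 difference of 0.11 ± 0.05 (SE) did not pass (adjusted p = 0.223 in limma), and its 95% interval ran from 0.00 to 0.22. Groups that do not overlap were found for 2 of the 37 genes, Ccnd1 and Ccnd3, against 3.86% of all genes. Both were higher in STZ livers, as for 2.3% of all genes, and no member was lower without overlap, against 1.56% of all genes. The change of Ccnd1 was compared with that of the other D-type cyclins inside each array, a comparison chosen after the values were seen. Ccnd1 less Ccnd2 was higher in STZ livers by 1.81 and Ccnd1 less Ccnd3 by 1.51, and for both differences every STZ liver lay above every control. The exact 2-sided permutation test gave p = 0.000583 for each pair, again the smallest possible value, and adds nothing to that separation.

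**Figure D2:**
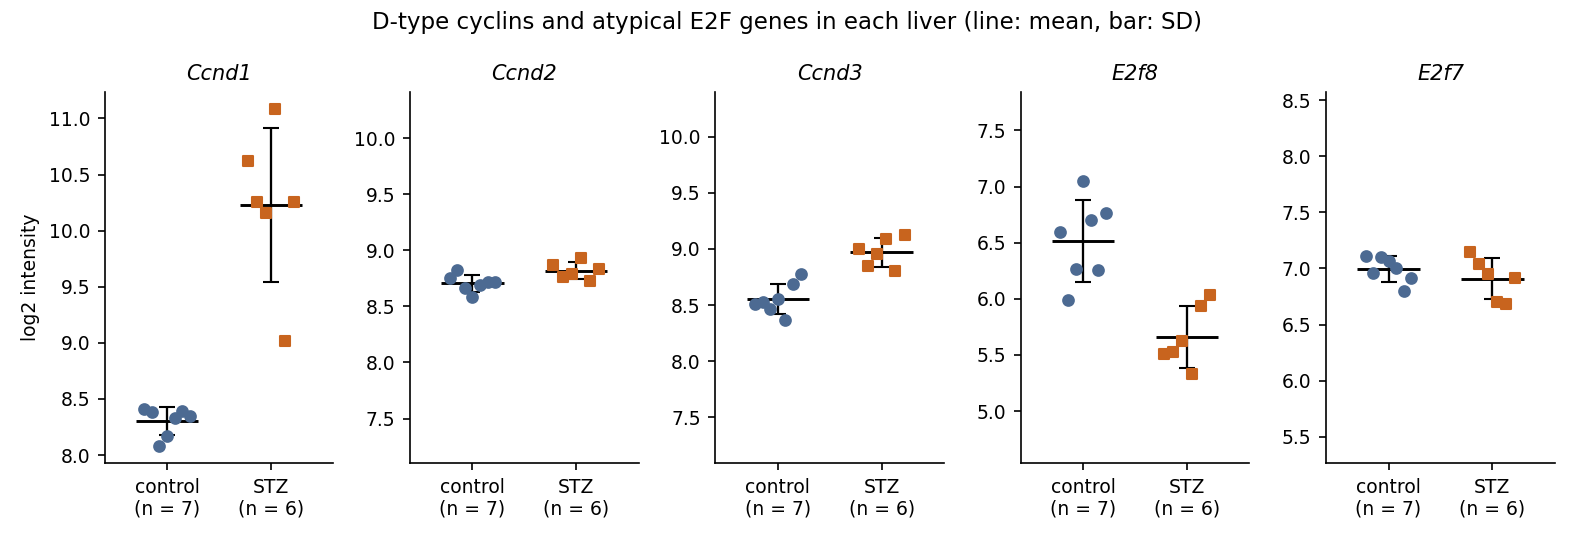
Log2 intensity (y axis) of Ccnd1, Ccnd2, Ccnd3, E2f8 and E2f7 in each control (circles, n = 7) and STZ liver (squares, n = 6), ordered by replicate within a group, with the mean as a line and the SD as a bar. The y axes span the same number of log2 units, so the rise of Ccnd1 by 1.93 can be set by eye against the 0.42 of Ccnd3, and E2f8 is seen to overlap between groups only where control replicate 2 lies below STZ replicate 6.

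The kinases that D-type cyclins activate did not pass. The difference was 0.02 ± 0.06 (SE) for Cdk4 and 0.02 ± 0.06 (SE) for Cdk6, and the upper ends of their 95% intervals were 0.13 and 0.16. Cdk2, the partner of cyclins E and A at the start of S phase, was 7.61, 7.89 and 8.16 in controls and 7.39, 7.62 and 7.81 in STZ livers (lowest, median and highest). Of the 6 STZ livers 3 lay below all controls, and the difference of -0.29 ± 0.09 (SE) missed the threshold (adjusted p = 0.0717 in limma). Without control replicate 3, the lowest control, Cdk2 was -0.33 and passed (adjusted p = 0.0314 in limma). The E-type cyclins, which activate Cdk2, gave -0.07 ± 0.12 (SE) for Ccne1 and -0.25 ± 0.13 (SE) for Ccne2, and neither passed (adjusted p = 0.813 and 0.276 in limma).

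CDK inhibitors hold these kinases in check, p27 (Cdkn1b) and p57 (Cdkn1c) by binding cyclin-CDK complexes and p18 (Cdkn2c) by binding CDK4 and CDK6. All 3 had differences above 0 and none passed, with 0.15 ± 0.05 (SE) for Cdkn1b, 0.14 ± 0.08 (SE) for Cdkn1c and 0.24 ± 0.08 (SE) for Cdkn2c (adjusted p = 0.0611, 0.313 and 0.0587 in limma). Cdkn1b was 8.39, 8.44 and 8.52 in controls and 8.48, 8.60 and 8.68 in STZ livers (lowest, median and highest), and 5 of 6 STZ livers lay above all controls. Cdkn2c was 6.68, 6.85 and 6.97 in controls and 6.88, 7.08 and 7.26 in STZ livers, with 4 of 6 above all controls. Both lay close to the threshold, and 1 array was enough to move them across it. Cdkn1b passed without STZ replicate 6 (0.17, adjusted p = 0.0418 in limma), and Cdkn2c passed without STZ replicate 3 (0.28, adjusted p = 0.0327) or without STZ replicate 5 (0.28, adjusted p = 0.0246). A dimmer probe set of Cdkn1b had a difference of only 0.04. With the mean of all probe sets Cdkn1b was 0.10 and did not pass (adjusted p = 0.509 in limma).

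E2F8 is an atypical E2F that represses E2F target genes and, with its relative E2F7, is known for its part in hepatocyte polyploidy. In controls E2f8 was 6.59, 5.99, 6.26, 7.05, 6.71, 6.26 and 6.77, and in STZ livers it was 5.51, 5.53, 5.62, 5.33, 5.94 and 6.04. The groups overlapped only where control replicate 2 lay below STZ replicate 6, and 5 of 6 STZ livers were below all controls. E2f8 fell by 0.86 on the log2 scale (SE 0.15), which is 1.81-fold lower (adjusted p = 0.00195 in limma), and passed in all 13 fits that left out an array. Its signal lay below that of the median gene (6.65). E2f7 was 6.80, 7.00 and 7.11 in controls and 6.69, 6.93 and 7.15 in STZ livers (lowest, median and highest). The E2f7 difference of -0.09 ± 0.08 (SE) did not pass (adjusted p = 0.616 in limma), and whether it differed from that of E2f8 was not tested.

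Rb1, which encodes RB, and the activator E2F genes E2f1, E2f2 and E2f3 did not pass. Their differences were 0.07 ± 0.07, -0.16 ± 0.09, 0.02 ± 0.08 and 0.10 ± 0.09 (SE). For E2f1, 4 of the 6 STZ livers lay below all controls and 1 above them all. Of the 14 genes between the D-type cyclins and the S phase genes, E2f8 was the only one to pass.

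The S phase genes encode the sliding clamp PCNA, the replicative helicase subunits MCM2 to MCM7 and both subunits of ribonucleotide reductase, which makes deoxynucleotides. None of the 9 passed in limma (1 at an unadjusted p under 0.05, and none in an exact rank-sum test after adjustment), and their median difference was -0.06. The highest was Mcm2 with 0.17 ± 0.11 (SE), from 7.31 ± 0.21 (SD, n = 7) to 7.48 ± 0.26 (SD, n = 6). Pcna was 9.46, 9.50 and 9.72 in controls and 9.50, 9.73 and 9.82 in STZ livers (lowest, median and highest), a difference of 0.13 ± 0.06 (SE, adjusted p = 0.276 in limma). The 2 probe sets of Pcna never differed by more than 0.02 in an array, so signal from a near-identical copy could not be told apart from that of the gene. Mcm3 to Mcm7 had differences between -0.13 and -0.04, and Rrm1, the large reductase subunit, had 0.03 ± 0.11 (SE).

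Rrm2, the reductase subunit that is limiting outside S phase, had the lowest difference. It was 6.82, 7.51 and 7.82 in controls and 6.69, 7.13 and 7.46 in STZ livers (lowest, median and highest), and the groups overlapped widely. The difference of -0.34 ± 0.15 (SE) did not pass (adjusted p = 0.205 in limma), but without control replicate 3 it was -0.44 and passed (adjusted p = 0.0396 in limma). The upper ends of the 95% intervals of the 9 genes reached 0.41 at most (Mcm2, 1.33-fold), while the lower end for Ccnd1 was 1.46.

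The G2 and M phase genes measured were the mitotic cyclins Ccna2 and Ccnb2 and their kinase Cdk1, the proliferation marker Mki67, topoisomerase Top2a, the Aurora kinases Aurka and Aurkb, the kinase Plk1, the checkpoint kinase Bub1, the anaphase activator Cdc20 and the transcription factor Foxm1. None of the 11 passed in limma, none had an unadjusted p under 0.05, and none passed in the exact rank-sum test. Their median difference was -0.01, and single differences ran from -0.20 (Foxm1) to 0.07 (Plk1). In controls Mki67 was 5.93, 5.85, 5.98, 6.35, 6.79, 6.33 and 5.98, and in STZ livers it was 6.38, 5.81, 6.08, 6.10, 6.20 and 6.72. The groups covered nearly the same range, and the difference was 0.04 ± 0.15 (SE, adjusted p = 0.927 in limma). For Cdk1 the difference was -0.04 ± 0.18 (SE), for Top2a 0.02 ± 0.12 (SE) and for Ccnb2 0.02 ± 0.25 (SE). The least precise of them was Ccnb2, whose 95% interval of -0.50 to 0.54 allows a change of up to 1.45-fold upwards. Foxm1 was 5.45, 5.69 and 6.04 in controls and 5.31, 5.52 and 5.75 in STZ livers (lowest, median and highest), with 3 of 6 STZ livers below all controls (adjusted p = 0.302 in limma).

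Across the S, G2 and M phase genes, 0 of 20 passed as higher and 0 as lower, against 5.09% and 4.04% of all genes. None of them passed as higher in the 13 fits that left out an array or in the other settings that tested them, which were 8 for 11 genes and 7 for the 9 that the filter on dim genes removed, and Rrm2 without control replicate 3 was the only one to pass as lower. The rise of Ccnd1 was thus measured without a rise of these genes that passed the test. The highest upper end of their 95% intervals, in the fit of all 13 arrays, was 1.45-fold (Ccnb2). Each interval covers 1 gene, so this is not a joint limit for the 20. The 9 dim genes among them lay below the median gene (6.65).

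The mitotic genes differed more between mice than between groups. All 11 were highest in control replicate 5 among the controls and highest in STZ replicate 6 among the STZ livers. Of all 19938 genes, 15.8% were highest in that control, 11.6% in that STZ liver and 2.41% in both. Averaged over the 11 genes, each taken as its deviation from its own mean of 13 livers, control replicate 5 stood at 0.54 and STZ replicate 6 at 0.40, while the other 11 livers ran from -0.28 (control replicate 2) to 0.13 (control replicate 6). Ccnb2 was 7.90 in control replicate 5 against 6.34 in control replicate 2, and 7.90 in STZ replicate 6 against 6.52 in STZ replicate 2. Within a group the 11 genes were positively correlated. The median Pearson r over the 55 gene pairs was 0.77 in the 7 controls and 0.74 in the 6 STZ livers. All 55 were above 0 in both groups. The S phase genes shared this in controls (median r 0.73 over 36 pairs, all 9 highest in control replicate 5) and less so in STZ livers (median r 0.34), where STZ replicate 1 was highest for 4 of 9 and STZ replicate 6 for 1. These correlations are descriptions over arrays that share their processing. They include control replicate 5 or STZ replicate 6, where all 11 mitotic genes were highest, and were not computed without these livers. Whether the genes varied together among the other livers was not tested.

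**Figure D3:**
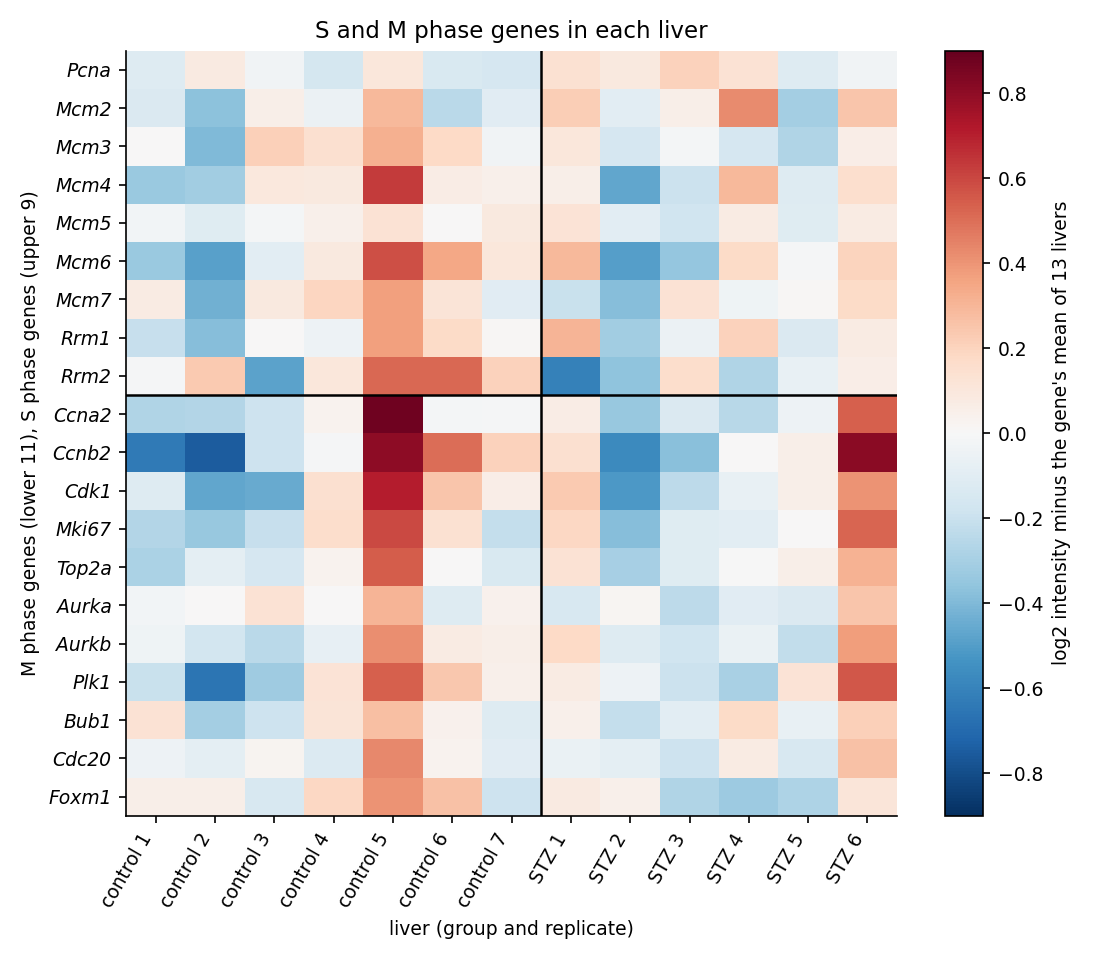
Each cell is the log2 intensity of an S phase (upper 9) or G2 and M phase gene (lower 11) in 1 liver less that gene's mean over the 13 livers, with red for higher and blue for lower values. Control 5 and STZ 6 are the red columns in the mitotic genes, at a mean of 0.54 and 0.40, and no block of color separates the 6 STZ from the 7 control livers.

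**Figure D4:**
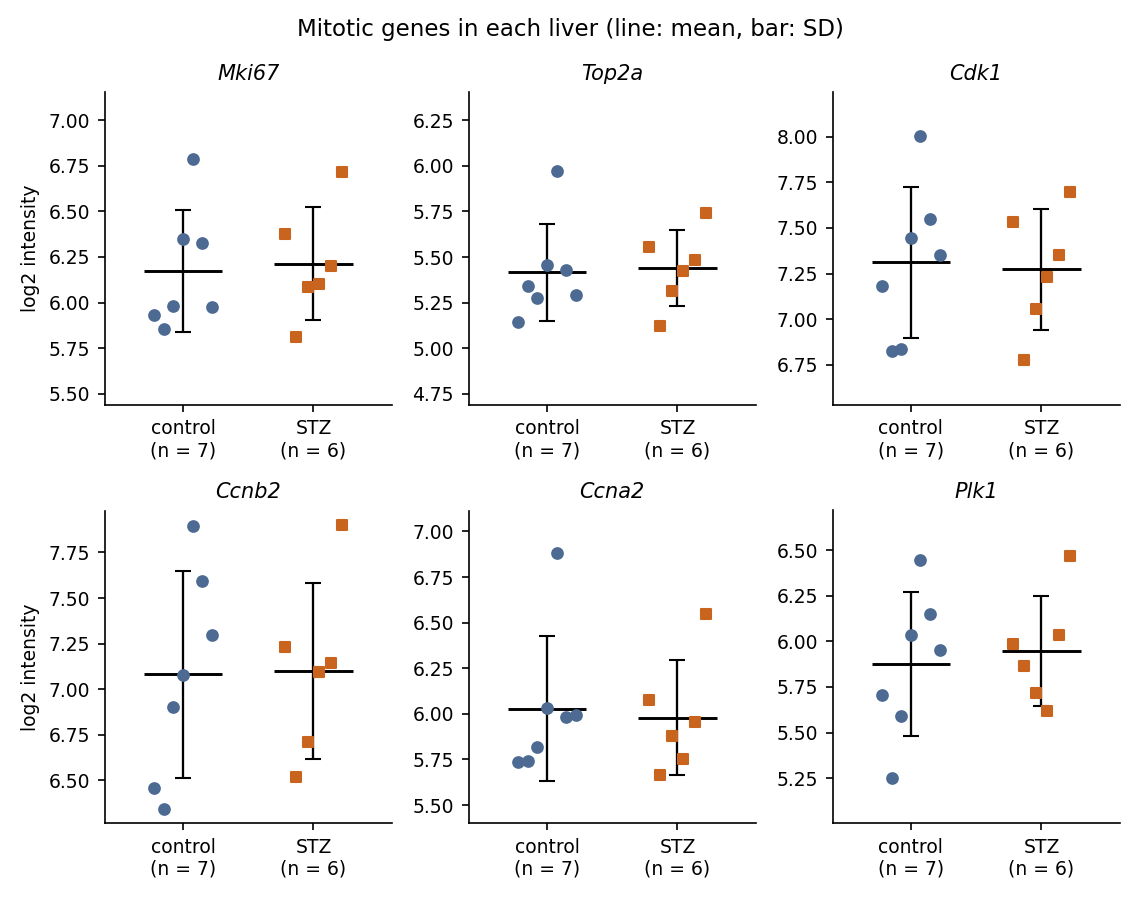
Log2 intensity (y axis) of 6 mitotic genes in each control (circles, n = 7) and STZ liver (squares, n = 6), ordered by replicate within a group, with the mean as a line and the SD as a bar. The group means nearly coincide (6.17 and 6.21 for Mki67), and the fifth control and the sixth STZ liver are the highest of their groups in all 6 panels.

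Mitotic genes often carry a cell cycle homology region (CHR, TTTGAA) and CCAAT boxes (CCAAT, bound by NF-Y) near their start. Through the CHR, MuvB complexes repress them in quiescence and activate them late in the cycle. RefSeq promoter windows of 250 bases before the start (GRCm38.p6) were found for 28 of the 37 genes, and both motifs were searched on both strands, counted also where they overlap. Of the 8 G2 and M phase genes with a window, 5 held a CHR and all 8 a CCAAT box, against 16.0% and 33.8% of all 32851 windows. The S phase genes, with 9 windows for 8 genes, held a CHR in 1 window and a CCAAT box in all 9. An E2F motif (TTTCGCGC, TTTGGCGC or TTCCCGCC) was in 3 of these 9 windows against 2.48% of all windows. The windows of 4 of the 5 mitotic genes with a CHR are shown beside that of E2f8, the gene of the list that fell. Aurka, Bub1 and Plk1 had windows without a CHR and are not shown. CHR and CCAAT matches of either strand are in capitals. A match is a description of these letters and not evidence of binding.
Cdk1, chr10:69352913-69353162, - strand: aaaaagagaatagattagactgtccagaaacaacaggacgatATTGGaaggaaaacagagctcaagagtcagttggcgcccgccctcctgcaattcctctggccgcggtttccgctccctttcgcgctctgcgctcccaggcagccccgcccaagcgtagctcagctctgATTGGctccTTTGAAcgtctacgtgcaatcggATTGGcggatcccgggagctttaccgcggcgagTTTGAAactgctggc
Ccnb2, chr9:70421555-70421804, - strand: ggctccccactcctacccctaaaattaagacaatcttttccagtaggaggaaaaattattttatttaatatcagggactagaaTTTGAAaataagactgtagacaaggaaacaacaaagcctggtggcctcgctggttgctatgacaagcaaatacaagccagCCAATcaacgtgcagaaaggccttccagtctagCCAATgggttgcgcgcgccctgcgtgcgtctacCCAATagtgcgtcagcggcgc
Top2a, chr11:99024190-99024439, - strand: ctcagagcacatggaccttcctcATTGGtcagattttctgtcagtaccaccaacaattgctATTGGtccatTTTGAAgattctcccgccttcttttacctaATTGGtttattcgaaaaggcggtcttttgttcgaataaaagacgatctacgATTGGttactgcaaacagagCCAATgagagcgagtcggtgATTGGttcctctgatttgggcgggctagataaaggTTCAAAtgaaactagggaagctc
Mki67, chr7:135716380-135716629, - strand: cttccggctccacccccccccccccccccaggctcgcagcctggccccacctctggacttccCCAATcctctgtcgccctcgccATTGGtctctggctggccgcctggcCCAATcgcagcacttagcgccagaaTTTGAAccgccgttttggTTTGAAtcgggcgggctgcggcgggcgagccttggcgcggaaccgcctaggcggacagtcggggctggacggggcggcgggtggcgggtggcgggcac
E2f8, chr7:48881597-48881846, - strand: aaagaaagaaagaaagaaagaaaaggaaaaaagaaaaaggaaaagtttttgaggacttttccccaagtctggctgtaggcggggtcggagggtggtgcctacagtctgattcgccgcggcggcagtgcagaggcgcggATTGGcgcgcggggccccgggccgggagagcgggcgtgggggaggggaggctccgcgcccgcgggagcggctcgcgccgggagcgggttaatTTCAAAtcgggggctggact
Cdk1, Top2a and Mki67 each held 2 CHR matches, Ccnb2 and E2f8 each held 1, and Top2a had the most CCAAT matches with 6.

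Whether the livers with the most Ccnd1 were those with the most S or M phase transcripts was examined within each group, because the groups form separate clusters in Ccnd1. Over 40 relations (20 genes in 2 groups), none passed an exact permutation test after Benjamini-Hochberg adjustment over the 40. The smallest adjusted p in that test was 0.611 for Pearson's r and 0.514 for Spearman's rho, with 1 and 3 at an unadjusted p under 0.05. The orderings of 6 livers are too few for a single STZ relation to pass on its own after this adjustment. In STZ livers the test therefore cannot decide whether a single gene followed Ccnd1. Among the mitotic genes the median r with Ccnd1 was 0.08 in the 7 controls and 0.02 in the 6 STZ livers, and their highest r was 0.44. The S phase genes had a median r of -0.11 in controls and 0.49 in STZ livers. The smallest p belonged to Mcm2 in STZ livers (r = 0.90, exact p = 0.0153, adjusted p = 0.611; rho = 0.89), and r was 0.47 without the 2 livers farthest from the Ccnd1 median. STZ replicate 4, with the highest Ccnd1 of 11.09, stood at -0.09 in the mean of the mitotic genes, and STZ replicate 6 reached its 0.40 with a Ccnd1 of 10.26.

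**Figure D5:**
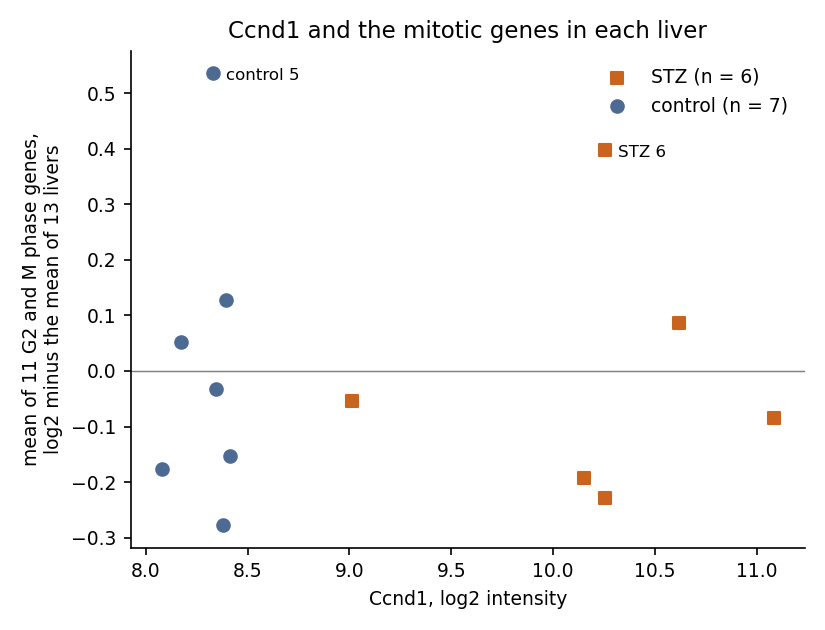
Mean of the 11 G2 and M phase genes (y axis, log2 less the mean of 13 livers) against Ccnd1 (x axis, log2 intensity) in 7 control (circles) and 6 STZ livers (squares). The groups are apart along the Ccnd1 axis, with every control at or below 8.41 and every STZ liver at or above 9.01, and overlap along the other, where control 5 (0.54) and STZ 6 (0.40) stand highest.

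Further genes of the same pathways, in lists drawn up with the list of members, gave counts of the same kind. The share that passed, all as lower, was 4.76% for DNA replication and 4.35% for mitosis. These shares lie near the 4.04% of all genes that passed as lower. Of 42 other genes of DNA replication, none rose and 2 fell, the replication initiation factor Mcm10 (-0.80 ± 0.11, SE) and thymidine kinase Tk1 (-0.34 ± 0.09, SE), with a list median of 0.00. Of 46 other mitotic genes, none rose and 2 fell, the NDC80 kinetochore subunits Spc24 (-0.37 ± 0.09, SE) and Spc25 (-0.55 ± 0.15, SE), with a list median of -0.03. In this second mitotic list, which shares no gene with the 11, 36 genes were highest in control replicate 5, 26 in STZ replicate 6 and 23 in both.

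Among 32 other genes of G1 control, 3 rose and 1 fell, which is 12.5% against 9.12% of all genes. Cyclin G1 (Ccng1) rose by 0.93 ± 0.06 (SE) and the ubiquitin ligase Mdm2 by 0.92 ± 0.09 (SE), both known targets of p53. Cul1, the scaffold of the SCF ubiquitin ligase, rose by 0.22 ± 0.05 (SE), and the E2F partner Tfdp1, named after its value was seen, fell by 0.18 on the log2 scale. Of the 32 genes the groups did not overlap for 4, the same 4 that passed, against 3.86% of all genes. The growth regulator Myc was 6.41, 6.79 and 9.12 in controls and 7.68, 7.96 and 9.33 in STZ livers (lowest, median and highest). Its difference of 0.98 ± 0.38 (SE) did not pass (adjusted p = 0.135 in limma), with a control SD of 0.94. Cdkn1a and Trp53 are not analysed here.

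Ccnd1 is a known target of growth factor and Wnt signalling, and lists of both were read alongside. The share that passed was 26.3% of the first and 18.8% of the second list, against 9.12% of all genes. Of 19 mitogens, receptors and immediate early genes, Hgf (0.38 ± 0.07, SE), Ier3 (0.50 ± 0.11, SE) and Junb (0.29 ± 0.09, SE) rose, and the receptors Egfr (-0.78 ± 0.16, SE) and Met (-0.24 ± 0.06, SE), the latter of which binds HGF, fell. Junb and Met were named after their values were seen. Of 16 Wnt pathway and pericentral genes, 3 rose and none fell, the feedback inhibitors Znrf3 (0.55 ± 0.08, SE) and Axin2 (0.36 ± 0.08, SE) and the pericentral enzyme Oat (0.52 ± 0.08, SE). The part of these genes in the Ccnd1 difference was not tested.

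Markers of other liver cells were read because a bulk sample can change in its mix of cells. The counts of these short lists stand beside 5.09% of all genes that passed as higher and 4.04% as lower. Of 12 macrophage markers 6 rose, among them Cd5l (0.62 ± 0.15, SE), C1qc (0.49 ± 0.13, SE) and Cd68 (0.47 ± 0.13, SE), and none fell. The mean of the 12 ran from 8.78 to 9.23 in controls and from 8.93 to 9.57 in STZ livers, with 5 of 6 STZ livers above all controls, and the part of these markers in the Ccnd1 difference was not tested. Among 11 markers of T and natural killer cells Cd4 fell (-0.23 ± 0.06, SE), among 7 of B and plasma cells Cd79b fell (-0.40 ± 0.10, SE), and none rose in either list. None of 9 neutrophil or 5 bile duct markers passed in limma (3 and 1 at an unadjusted p under 0.05), with the smallest p for Ly6g (0.22 ± 0.08, SE) and Epcam (0.26 ± 0.08, SE). Lyve1 (0.50 ± 0.11, SE) was the only 1 of 9 endothelial markers to rise. Of 8 hepatocyte markers Cps1 rose (0.16 ± 0.04, SE) and Apoa1 (-0.23 ± 0.06, SE) and Ttr (-0.18 ± 0.05, SE) fell. Dcn and Rgs5 rose and Lrat fell among 10 stellate cell markers. Among 4 erythroid markers Tfrc rose (0.58 ± 0.08, SE) and Alas2 fell (-1.58 ± 0.26, SE), and 5 further erythroid markers were not measured.

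Beside the mitotic genes, control replicate 5 had the highest mean of the 7 controls in the B and plasma cell list (5.75, controls 5.63 to 5.75). Its means in the macrophage (9.02, controls 8.78 to 9.23) and T and natural killer cell lists (5.44, controls 5.33 to 5.51) lay inside the range of the others, and it had the lowest hepatocyte (12.95) and endothelial means (9.00) of the controls. Of the lists of further cell cycle genes, it had the highest mean of the controls in DNA replication (6.94) and mitosis (6.16). STZ replicate 6 lay inside the range of the other STZ livers in the B and plasma cell (5.59), macrophage (9.45) and T and natural killer cell lists (5.40), and had the highest mean of the STZ livers in the further mitotic genes (6.07) and in the Wnt and pericentral list (9.54). Whether such cells contribute to the high mitotic genes of the pair was not tested.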

How the data were processed

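Liver RNA of 7 control and 6 STZ mice was measured on 1 array each. The authors deposited log2 values for 35556 probe sets. The submitters' processing notes name RMA and Affymetrix Expression Console 1.2. RMA brings arrays to a common distribution, so a change in total RNA per cell is not seen. No genome build is named in the labels. The platform annotation gave 1 symbol for 21789 probe sets (19938 genes), several for 1621 and none for 12146, and the brightest probe set per gene was kept, with no filter on dim genes. Groups were compared with limma 3.58.1 in R 4.3.3 (lmFit, eBayes, 11 residual degrees of freedom), adjusted by Benjamini-Hochberg over all genes at 0.05. The fit was tested on simulated data. The titles number the mice as biological replicates, 1 to 7 in controls and 1 to 6 in the STZ group. A separate label number is 1 to 7 in controls and 29, 30, 31, 32, 40 and 42 in STZ mice. The labels give no batch, and a batch following the label numbers cannot be told apart from treatment.

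The members, lists and tests were chosen with earlier results of these data known. All members are reported; from each other list the rule named up to 3 passing genes of largest absolute difference, or the gene with the smallest p where none passed, and Myc, Cdkn1a and Trp53 whatever their result. Genes named outside it are marked as such or complete a count of 5 or fewer. Alternatives were another variance model, a filter on dim genes, the mean of all probe sets, 2 rescalings, a rank-sum test, a replicate block, fewer STZ arrays and each array left out. Exact permutation tests enumerated every split or pairing in Python 3.11.15. The pairing check correlated, for each shared replicate number, the deviations of both mice from their group means (-0.09 to 0.19).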

Additional observations from a re-analysis of the deposited data

Results flagged for a closer look

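In 3 of 74 groups (37 genes in 2 groups of livers) 1 liver stood far from the others by Dixon's ratio, where chance (1 group in 20) gives about 3.7. All 3 were control replicate 5 as the highest of the controls. Ccna2 was 6.88 there against 5.74 to 6.03 in the other controls, Top2a was 5.97 against 5.14 to 5.46, and Cdc20 was 7.08 against 6.52 to 6.68. Without that liver the STZ minus control differences were 0.09 for Ccna2, 0.12 for Top2a and 0.03 for Cdc20, and none passed in limma.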

How the results depend on the processing

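Ccnd1, Ccnd3 and E2f8 passed, in the same direction, in every setting that tested them, which was 8 settings and 13 fits without an array for Ccnd1 and Ccnd3 and all but the filter on dim genes, which removes it, for E2f8. Without each array in turn Ccnd1 ran from 1.76 to 2.17. The count of members that passed was 3, and 3 to 5 without each array. It was 5 of 37 with the arrays quantile normalized again (Cdk2 and Cdkn1b added), where 9.94% of all genes passed. With only the STZ livers of label numbers 29 to 32 it was 5 of 37 (Cdkn2c and E2f1 added), where 9.96% of all genes passed. Among genes above the median gene, where fewer members were tested, it was 5 (Cdk2, Cdkn1b and Cdkn2c added, E2f8 not tested). In that setting 18.6% of the genes tested passed. The count over all genes was 1819, and 1088 in the rank-sum test, for which the cause was not tested. With the replicate number as a replicate block it was 1256, with 3 members and a Ccnd1 difference of 1.93. The deviations of same-numbered mice had correlations of -0.09 to 0.19. Differently numbered mice were not correlated for reference, so this check cannot decide whether the replicate numbers pair the mice. The block changed no call among the members. Only differences of members that did not pass changed sign. Top2a was -0.012 with the mean of all probe sets. With quantile normalization Rrm1 was -0.0036 and Ccnb2 -0.00058. With the replicate block E2f2 was -0.0022 and Aurkb 0.0012. With label numbers 29 to 32 only, Ccnb2 was -0.19, Mki67 -0.080, Top2a -0.061, Plk1 -0.081 and Bub1 -0.015. Signs also changed in fits without an array, with ranges for Aurkb (-0.083 to 0.062), Bub1 (-0.031 to 0.065), Ccna2 (-0.16 to 0.094), Ccnb2 (-0.14 to 0.15), Cdc20 (-0.098 to 0.029), Cdk1 (-0.12 to 0.076), Cdk4 (-0.028 to 0.037), Cdk6 (-0.0083 to 0.062), E2f2 (-0.016 to 0.049), Mcm4 (-0.15 to 0.014), Mcm6 (-0.15 to 0.033), Mki67 (-0.058 to 0.14), Plk1 (-0.033 to 0.17), Rrm1 (-0.036 to 0.092) and Top2a (-0.035 to 0.12). Without the 2 livers farthest from the Ccnd1 median, r with Ccnd1 changed sign in 16 of 40 relations. The cause of the sign changes was not tested, and 13 arrays cannot resolve changes inside the intervals given.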

Other observations

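Cyclin D1 lies among other genes of growth control, and the neighbours on its chromosome were read for the same livers, a choice made after the Ccnd1 values were seen. Of the 9 nearest measured protein-coding genes in the RefSeq order (5 on one side, and 4 on the other, where the table's chromosome ends), 2 rose and none fell in limma, against 5.09% and 4.04% of all genes. LTO1, whose span overlaps that of Ccnd1 in the RefSeq table, rose by 0.25 ± 0.08 (SE, adjusted p = 0.0454 in limma), and the chloride channel gene Ano1, the farthest on that side, by 0.27 ± 0.07 (SE, adjusted p = 0.0282). The fibroblast growth factor genes between them, Fgf15 (-0.04 ± 0.08, SE), Fgf4 (-0.02 ± 0.07, SE) and Fgf3 (-0.02 ± 0.07, SE), did not pass, nor did the 4 genes on the other side, which ran from -0.12 (Mrgprd) to 0.13 (Tpcn2). The rise of Ccnd1 by 1.93 was several times that of any of these 9 neighbours. No alternative settings were run on the neighbours.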
